A study of Mus musculus with 32 samples.

Results

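Active promoters that carried H3K27ac at every time and met no Ikaros peak were examined in B3, a line of mouse pre-B cells. H3K27ac is the acetylation of lysine 27 of histone H3, a mark of active promoters and enhancers. The 8 H3K27ac peak lists were merged into 39289 regions, of which 14715 were called in all 8 lists. Of these constant regions, 9463 lay within 1 kb of an annotated transcription start site (TSS) of GENCODE M21 and are called constant promoters here. No peak of any of the 8 Ikaros lists overlapped 1704 of them, which is 18.01% of the constant promoters, and these are the Ikaros-free promoters described here. They were set beside the 4822 constant promoters that overlapped a peak in both Ikaros 2 h lists, called Ikaros-bound, and 2937 constant promoters fell in neither group.

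All samples were B3 cells transduced with a retrovirus encoding HA-tagged Ikaros (IKZF1) joined to ERt2, a hormone receptor domain that lets the fusion enter the nucleus once it binds 4-hydroxytamoxifen (4-OHT). The 0 h cells carried the construct and received no 4-OHT, and the others received 500 nM 4-OHT for 30 min, 1 h or 2 h. HA-Ikaros, H3K27ac and CHD4 were each mapped by ChIP-seq in 2 replicates per time, giving 24 peak lists, and the question was how early Ikaros binding affects CHD4 recruitment and H3K27ac. The anti-HA antibody saw the introduced Ikaros only, so an Ikaros-free promoter was free of a called peak of the fusion protein, whatever other Ikaros the cells held. The labels do not say that replicates were separate cultures, so p-values measure the spread between these libraries, which may be technical.

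Ikaros is a zinc finger transcription factor of lymphocyte development that represses genes in B-cell precursors. It binds DNA words that contain GGGAA, and it associates with the nucleosome remodelling and deacetylase complex NuRD, whose remodelling ATPase is CHD4. Promoters of housekeeping genes are commonly CpG-rich and carry H3K27ac in most cell types.

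The depth recovered from the lists was 3.75 to 4.34 fragments per base in the H3K27ac libraries and 1.98 to 3.59 in the Ikaros libraries, and that of the CHD4 libraries is unknown. The H3K27ac lists held 21468 to 33664 peaks, the Ikaros lists 5373 to 14874 and the CHD4 lists 2488 to 9593. The absence of a peak therefore means that the region stayed below the threshold of a library at that depth. Of 10 B-lineage marker genes, 9 had a constant promoter, against 1 of 7 T cell, 2 of 10 myeloid and erythroid, and 0 of 10 liver, muscle and neuron markers, which fits the pre-B label.

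The sequences just before the TSS of a few promoters with high H3K27ac are given as examples, which need not be typical of their groups. The 3 Ikaros-free promoters with the highest H3K27ac and 2 of the 5 most acetylated Ikaros-bound ones (the first and the fifth) are printed below as the 200 bases before the TSS nearest to the middle of the region, 5′ to 3′ on the strand of the gene (GRCm38, mm10). Capitals mark GGGAA, the GC box GGGCGG, the CCAAT box CCAAT and the TATA box TATAAA, on either strand. Clk1 (chr1:58424067-58424266, minus strand) encodes a kinase of splicing factors, Yy1 (chr12:108792773-108792972, plus strand) a zinc finger transcription factor and Hmgb1 (chr5:149052378-149052577, minus strand) a chromatin protein that bends DNA. Hist1h2ab (chr13:23750926-23751125, plus strand) encodes a histone H2A and H3f3b (chr11:116027963-116028162, minus strand) the histone variant H3.3.
Clk1, Ikaros-free: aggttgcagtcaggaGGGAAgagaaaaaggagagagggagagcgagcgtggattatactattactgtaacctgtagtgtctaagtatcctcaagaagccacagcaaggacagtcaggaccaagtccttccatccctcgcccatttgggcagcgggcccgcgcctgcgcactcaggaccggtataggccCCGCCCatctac
Yy1, Ikaros-free: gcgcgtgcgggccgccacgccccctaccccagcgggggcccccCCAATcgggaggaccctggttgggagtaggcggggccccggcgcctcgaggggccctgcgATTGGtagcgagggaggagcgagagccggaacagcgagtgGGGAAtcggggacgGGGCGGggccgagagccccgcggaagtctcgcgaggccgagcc
Hmgb1, Ikaros-free: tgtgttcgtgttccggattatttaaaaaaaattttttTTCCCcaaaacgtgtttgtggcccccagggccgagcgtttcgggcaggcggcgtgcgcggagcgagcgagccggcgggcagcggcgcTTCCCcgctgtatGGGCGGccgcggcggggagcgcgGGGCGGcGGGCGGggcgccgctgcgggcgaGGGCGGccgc
Hist1h2ab, Ikaros-bound: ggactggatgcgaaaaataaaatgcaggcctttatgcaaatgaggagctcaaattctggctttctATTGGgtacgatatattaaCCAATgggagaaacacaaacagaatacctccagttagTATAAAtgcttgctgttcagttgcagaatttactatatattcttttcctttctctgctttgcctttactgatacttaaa
H3f3b, Ikaros-bound: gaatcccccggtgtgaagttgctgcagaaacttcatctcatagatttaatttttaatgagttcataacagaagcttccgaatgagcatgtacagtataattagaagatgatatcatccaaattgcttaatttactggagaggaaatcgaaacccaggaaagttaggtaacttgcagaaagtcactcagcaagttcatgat
All 3 Ikaros-free windows held GGGAA, at 1 place in Clk1 and Yy1 and at 2 places in Hmgb1, and neither Ikaros-bound window did. Over all constant promoters, counted in the next paragraph, the Ikaros-bound group held it more often. The windows cover a small part of each region, and the Ikaros peaks of Hist1h2ab and H3f3b can lie outside them. The GC content of the printed windows was 56% in Clk1, 77% in Yy1 and 70.5% in Hmgb1, against 36% in Hist1h2ab and 37% in H3f3b, but the median over the windows described next was 60.7% in both groups.

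Words were counted in the same way over windows from 250 bases before to 50 bases after the TSS of every constant promoter, on both strands, and an occurrence is a match of letters, not a site. GGGAA was present in 54.0% of the Ikaros-free windows, 67.8% of the Ikaros-bound windows, 62.9% of all constant promoters and 63.6% of the TSS windows of all protein-coding genes. Among the Ikaros-free promoters it was in 53.4% of the autosomal windows and in 62.2% of the 127 windows on chromosome X. Over whole regions GGGAA occurred 2.88 times per kb in the Ikaros-free and 3.25 times per kb in the Ikaros-bound promoters. It was absent from 25 of the 1704 Ikaros-free regions (1.47%) and from 7 of the 4822 Ikaros-bound ones (0.145%), which were wider at the median. The ETS word CCGGAAG was in 22.2% of Ikaros-free, 17.2% of Ikaros-bound, 18.9% of all constant and 10.8% of all protein-coding windows. For the YY1 word AAGATGGC these shares were 8.63%, 4.52%, 5.71% and 2.92%, and for the NRF1 word GCATGCGC they were 5.93%, 4.42%, 4.95% and 3.71%. Words of ETS factors, YY1 and NRF1 are found at many housekeeping promoters. The GC box was in 58.4% of Ikaros-free and 57.2% of Ikaros-bound windows, the CCAAT box in 34.9% and 34.5%, and the TATA box in 6.04% and 6.82%, and these core words differed less between the groups than GGGAA did. The E-box CACGTG was in 11.2% and 9.35%, and the CRE word TGACGTCA in 3.40% and 2.59%. Some of these words can share letters at 1 place. The median ratio of observed to expected CpG was 0.798 in Ikaros-free, 0.757 in Ikaros-bound and 0.525 in all protein-coding windows.

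The Ikaros-free promoters were narrower than the Ikaros-bound ones. Their median region width was 1928 bp (quartiles 1419 and 2649 bp), against 3503.5 bp (quartiles 2476 and 5224 bp). A wider region has more bases that an Ikaros peak can overlap, so the width is tied to the rule that chose the groups and was not tested. The TSS lay inside the region at 1556 Ikaros-free promoters, 1 to 500 bp outside at 103 and farther out, up to 1000 bp, at 45. A protein-coding TSS lay within 1 kb at 91.5% of Ikaros-free and 90.2% of Ikaros-bound promoters, and 2 protein-coding genes on opposite strands shared the region at 11.2% and 13.04%. From the edge of an Ikaros-free promoter to the nearest Ikaros peak the median distance was 22897 bp, and 86 of the 1704 lay within 1 kb of one, 299 within 5 kb and 784 within 20 kb.

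Width, H3K27ac and CHD4 differed gradually with the number of Ikaros lists that called a constant promoter. From 0 to 8 lists the median width went from 1928 to 4743 bp, the median H3K27ac rank (a percentile of the list, defined below, averaged over 8 libraries) from 64.0 to 86.6 and the share with a CHD4 peak in at least 1 list from 20.9% to 95.1%. A further 1054 promoters were called in exactly 1 Ikaros list and so fell just outside the rule. Of these single calls, 307 came from 2 h replicate 2, 273 from 1 h replicate 2, 233 from 2 h replicate 1, 131 from 1 h replicate 1 and 6 to 44 from each 0 h or 30 min library. The 3 most acetylated of them were Fubp1, which encodes a single-strand DNA-binding regulator, Rpsa, which encodes a ribosomal protein, and Rnf4, which encodes a ubiquitin ligase of SUMO-tagged proteins. Their single Ikaros peaks had a fold enrichment of 5.97, 5.57 and 4.26, in 1 h replicate 1, 1 h replicate 2 and 1 h replicate 1. Just inside the rule, the nearest Ikaros peak lay 2 bp from the region of Wrb, 13 bp from that of Txndc15 and 20 bp from that of the small nucleolar RNA gene Rnu3b3.

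**Figure D1:**
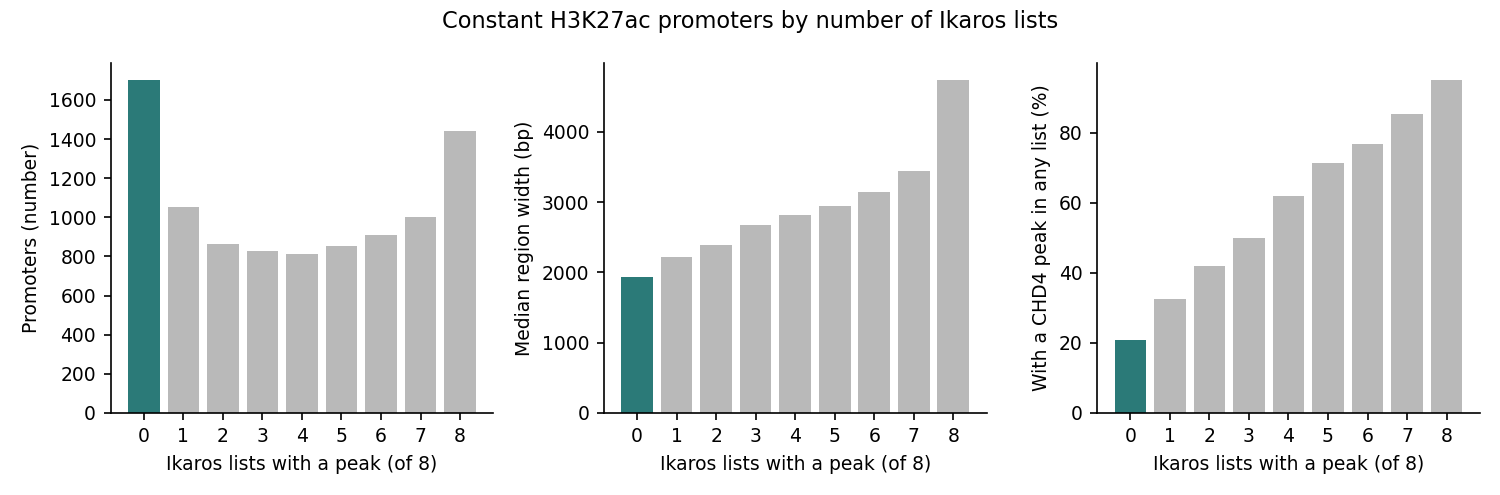
Constant H3K27ac promoters grouped by the number of Ikaros lists, of 8, with a peak in the region (horizontal axis), with the number of promoters, the median region width in bp and the percentage with a CHD4 peak in at least 1 of 8 lists as bars. The 1704 Ikaros-free promoters are the coloured bar at 0, and width and CHD4 share rise in steps to 4743 bp and 95.1% at 8 lists.

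The H3K27ac level of a promoter was taken as the highest fold enrichment over background among its peaks in a library, and ranked as a percentile of all peaks in that list, where 100 is the strongest peak. In the 0 h libraries the mean rank of Ikaros-free promoters was 61.1 and 55.7, against 77.8 and 74.5 for Ikaros-bound promoters. At 30 min it was 70.9 and 62.1 against 81.9 and 76.6, at 1 h 66.8 and 60.9 against 79.1 and 75.4, and at 2 h 69.9 and 63.3 against 82.1 and 77.3. The Ikaros-free promoters were lower in 8 of 8 libraries. The difference was 14.3 ± 2.54 percentile points (SD, n = 8 libraries, exact two-sided sign-flip permutation p = 0.0078, adjusted p = 0.0078 over 2 tests), and this p is the smallest that 8 libraries can give. The regions were chosen with the same 8 H3K27ac lists and are the same in every library. The p therefore covers only how steadily the gap recurred between libraries, and a link to Ikaros was not tested. Within 5 bins of region width the mean difference was smaller, at 3.68 ± 1.44 points (exact permutation p = 0.0078), and with ranks taken over the constant promoters only it was larger, at 21.8 points.

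In the narrowest bin, 399 to 1758 bp, 38.2% of constant promoters were Ikaros-free and the mean ranks were 54.6 for Ikaros-free and 55.0 for Ikaros-bound promoters. In the widest, 4540 to 41515 bp, 3.54% were Ikaros-free and the ranks were 79.7 and 88.1. A CHD4 peak in any list was likewise more frequent in wide regions, at 13.4% of Ikaros-free and 57.6% of Ikaros-bound promoters in the narrowest bin and 52.2% and 94.5% in the widest.

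**Figure D2:**
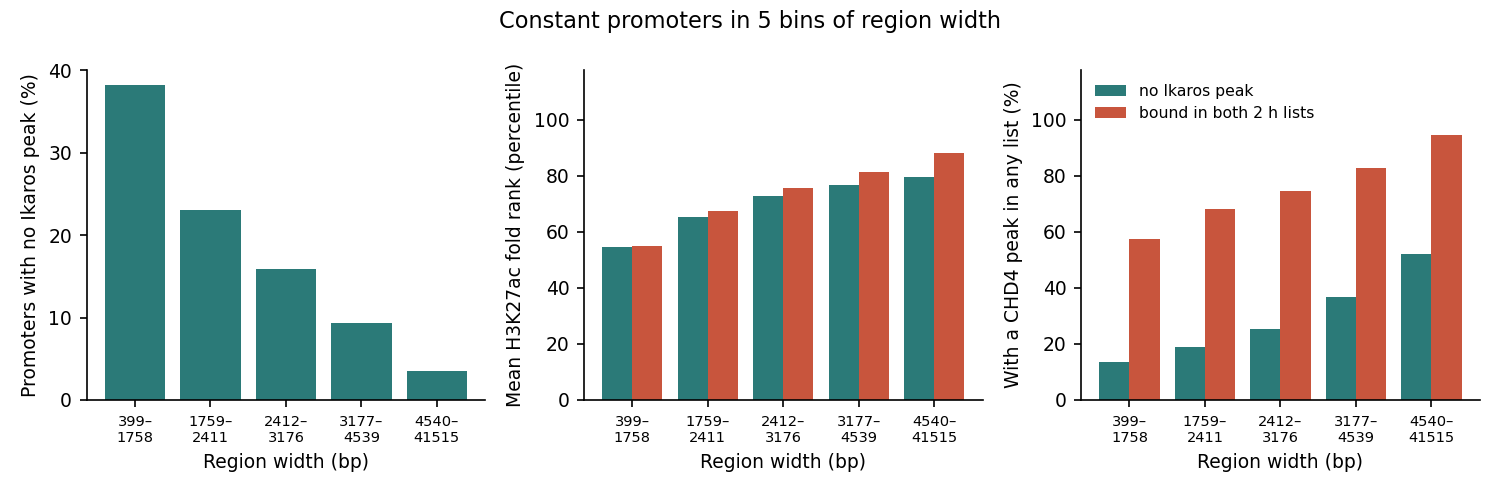
Constant promoters in 5 bins of region width in bp (horizontal axis), with the percentage that had no Ikaros peak, the mean H3K27ac fold rank as a percentile of the list, and the percentage with a CHD4 peak in any list as bars for Ikaros-free and Ikaros-bound promoters. The Ikaros-free share falls from 38.2% to 3.54%, the ranks differ little in the narrow bins (54.6 and 55.0), and the CHD4 shares differ in every bin.

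The Ikaros-free promoters themselves ranged from a mean rank of 8.41 to 99.2, and the rank of a promoter varied between libraries with a median SD of 9.60. Mean ranks above 90 were found at 125 of them (7.34%, against 26.8% of the Ikaros-bound) and below 50 at 400 (23.5%, against 6.22%). The 10 highest were Clk1, Yy1, Hmgb1, Gmnn, Chtop, Rps23, Eif1, Rpl19, Tmem80 and Eif4a1, with mean ranks of 97.8 to 99.2. Gmnn encodes geminin, an inhibitor of replication licensing, Chtop an mRNA export factor, Rps23 and Rpl19 ribosomal proteins, and Eif1 and Eif4a1 translation initiation factors. The fold enrichment of Clk1 was 39.2 and 33.0 at 0 h, 40.6 and 35.8 at 30 min, 46.5 and 33.1 at 1 h, and 23.5 and 32.9 at 2 h. That of Yy1 was 42.4 and 35.8 at 0 h, 46.3 and 35.2 at 30 min, 50.1 and 37.8 at 1 h, and 29.2 and 20.5 at 2 h. For Hmgb1 the values were 48.1 and 34.7, 30.2 and 29.4, 40.2 and 25.4, and 24.8 and 24.4 at the same times. Fold values as deposited were lower at 2 h than at 0 h in both groups, with a median over the Ikaros-free promoters of 10.0 and 8.78 at 0 h and of 7.31 and 7.48 at 2 h, and over the Ikaros-bound promoters of 17.4 and 14.6 at 0 h and of 11.3 and 11.1 at 2 h, so the times were compared by rank or after normalisation. They were not lower at each later time, since the 30 min medians were 12.5 and 8.93 for the Ikaros-free and 19.2 and 13.7 for the Ikaros-bound promoters. The 5 lowest were Gm3365, Ighv8-3, Aida, Ighv1-64 and Ighv8-5, with mean ranks of 8.41 to 18.4, of which 3 are immunoglobulin heavy chain V segments.

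Over the time course no trend in the rank of the Ikaros-free promoters passed the test. Spearman's rho of the mean rank with time was 0.488 (exact two-sided permutation p = 0.247, adjusted p = 0.247 over 3 trends, n = 8) and Pearson's r was 0.491 (exact permutation p = 0.222 before and after adjustment), or 0.460 without the 2 h libraries. The gap to the Ikaros-bound promoters started at 17.8 ± 1.44 points in the 0 h libraries (SD, n = 2 here and for each later time). It stood at 12.8 ± 2.45 after 30 min of 4-OHT, 13.5 ± 1.54 after 1 h and 13.1 ± 1.31 after 2 h. Both 0 h values were above all 6 later ones. Spearman's rho of this gap with time was −0.586 over the 8 libraries and did not pass (exact permutation p = 0.153, or 0.230 after adjustment). Pearson's r was −0.561 (exact permutation p = 0.144, or 0.217 after adjustment), and −0.684 without the 2 h libraries. It had an unadjusted p of 0.0349 (rho = −0.781, exact permutation) within the width bins and, with the same rho and p, when only constant promoters were ranked, and rho was −0.293 (exact permutation p = 0.513) when every list was cut to the size of the shortest of its target.

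**Figure D3:**
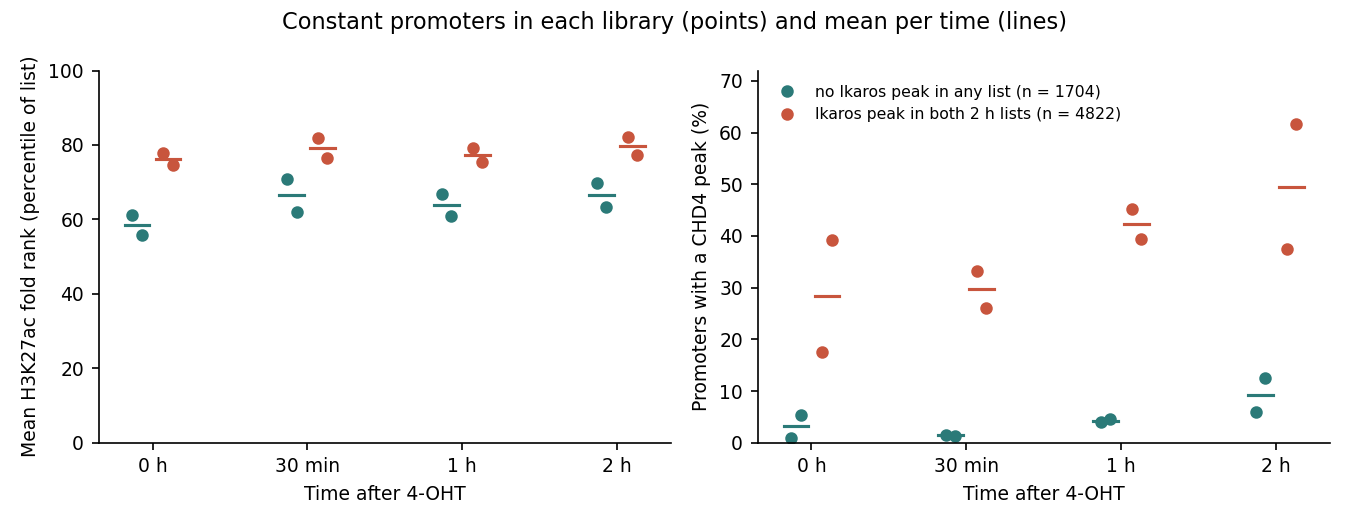
Mean H3K27ac fold rank, as a percentile of the list, and percentage of promoters with a CHD4 peak by time after 4-OHT for 1704 Ikaros-free and 4822 Ikaros-bound promoters; points are libraries (2 per time) and lines their mean. The Ikaros-free promoters lie below the Ikaros-bound ones in all 8 libraries of both targets, and their CHD4 share is highest, at 12.5%, in 2 h replicate 2.

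Levels at single promoters were compared with limma on the log2 of the fold enrichment, quantile normalised over the 14715 constant regions, so each change is relative to those regions. The 3 comparisons share the 0 h libraries. Only regions with a peak in all 8 lists entered, so a promoter that lost the mark or gained it anew was left out by the rule, which limits the changes that could be found. No Ikaros-free promoter passed an adjusted p of 0.05 at 30 min or 1 h (limma, Benjamini-Hochberg), and 4 of 1704 did at 2 h, of which 3 rose and 1 fell. Over all constant regions 0% rose and 0% fell at 30 min, 0.0136% rose and 0.109% fell at 1 h, and 0.183% rose and 0.435% fell at 2 h. At an unadjusted p under 0.05, 54 Ikaros-free promoters were higher and 20 lower at 30 min (background 3.59% and 5.32%), 97 higher and 32 lower at 1 h (background 5.91% and 6.89%), and 98 higher and 47 lower at 2 h (background 7.33% and 7.95%). The lower share was thus 1.17%, 1.88% and 2.76% of the Ikaros-free promoters, against 4.58%, 6.97% and 7.86% of the Ikaros-bound promoters. The median log2 change of the Ikaros-free promoters was 0.12 at 30 min, 0.12 at 1 h and 0.06 at 2 h, beside 0.03, 0.02 and 0.01 over all constant regions and 0.02, −0.01 and −0.02 over the Ikaros-bound promoters. A single promoter had a median standard error of 0.29, and at 1 h log2 changes of up to 1.25 and down to −1.29 were not called (limma, smallest adjusted p = 0.120).

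The promoters that passed at 2 h were near Igkv4-73, Mtf2, Slamf7 and Ighv1-79. The fold enrichment near Igkv4-73, an immunoglobulin kappa V pseudogene (chr6:69196974-69202100), was 5.32 and 3.20 at 0 h, 6.35 and 5.84 at 30 min, 7.07 and 5.91 at 1 h, and 8.66 and 9.77 at 2 h (log2 change 1.52, SE 0.28, adjusted p = 0.0329). Both 2 h values were above all others. At Mtf2, which encodes a partner of Polycomb repressive complex 2 (chr5:108078359-108081934), it was 3.11 and 3.33, 4.23 and 4.05, 5.04 and 4.91, and 6.72 and 7.29 (log2 change 1.41, SE 0.27, adjusted p = 0.0393). The values of the 4 times did not overlap. At Slamf7, which encodes an immune cell receptor (chr1:171646147-171649942), it was 6.23 and 4.38 at 0 h, 10.2 and 9.90 at 30 min, 9.52 and 8.16 at 1 h, and 10.4 and 9.58 at 2 h (log2 change 1.34, SE 0.27, adjusted p = 0.0463). At Ighv1-79, a heavy chain V pseudogene (chr12:115887425-115888731), it was 11.7 and 10.1 at 0 h, 6.52 and 4.87 at 30 min, 4.62 and 4.16 at 1 h, and 3.89 and 2.62 at 2 h, and the log2 change was −1.47 (SE 0.28, adjusted p = 0.0368). The 0 h values were above all later ones. Copies within a V segment family can be near-identical, so reads may be shared between them and these 2 loci are uncertain. None of the 4 calls was left when any 1 library was left out or when only constant promoters were fitted. The first leaves fewer libraries and the second fewer regions and another set for normalisation, and the reason for the loss was not tested.

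CHD4 was rarely called at Ikaros-free promoters. A peak in at least 1 CHD4 list was found at 356 of 1704 (20.9%), against 58.2% of all constant promoters, and in all 8 lists at 3, against 4.17%. In the libraries the share was 0.998% and 5.40% at 0 h, 1.53% and 1.35% at 30 min, 3.99% and 4.58% at 1 h, and 5.99% and 12.5% at 2 h. The Ikaros-bound promoters had 17.6% and 39.3%, 33.3% and 26.1%, 45.3% and 39.5%, and 37.5% and 61.6% at these times. The Ikaros-bound share was higher in 8 of 8 libraries, by 33.0 ± 9.78 percentage points (SD, n = 8, exact two-sided sign-flip permutation p = 0.0078, adjusted p = 0.0078 over 2 tests, the smallest possible). With the groups kept, the difference was 5.41 points when only CHD4 peaks with a −log10 q of at least 3 were used and 18.4 points when the CHD4 lists were cut to equal size. With that q threshold on the lists of all targets, which changed the groups, it was 6.17 points, and with an Ikaros peak looked for within 500 bp of the TSS only it was 20.3 points, each with the same p.

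The Ikaros-free promoters thus averaged a CHD4 share of 3.20 ± 3.11% before 4-OHT (SD, n = 2 for each time), 1.44 ± 0.124% after 30 min, 4.28 ± 0.415% after 1 h and 9.24 ± 4.61% after 2 h. Over the 8 libraries Spearman's rho of that share with time was 0.683 (exact permutation p = 0.0825, or 0.230 after adjustment). Pearson's r was 0.733 (exact permutation p = 0.0298, or 0.0893 after adjustment) and 0.255 without the 2 h libraries, so the relation rested on them. The CHD4 lists also differed in length, with 9593 peaks in 2 h replicate 2 against 2488 in 0 h replicate 1, and with only the CHD4 lists cut to equal size rho was 0.683 (exact permutation p = 0.0825) and r was 0.881 (exact permutation p = 0.0083). With the lists of all targets cut, which gave 3890 Ikaros-free promoters, rho was 0.781 (exact permutation p = 0.0349) and r was 0.916 (exact permutation p = 0.0044). With a −log10 q of at least 3 it was 0.221 for the CHD4 lists only (exact permutation p = 0.606) and 0.172 for all lists (exact permutation p = 0.692). Without 0 h replicate 2, whose list of 6000 peaks was the second longest, rho was 0.973 (exact permutation p = 0.0032). Of the 220 promoters called in exactly 1 CHD4 list, 105 were called in 2 h replicate 2, and without that library 251 promoters had any CHD4 peak. In both 2 h lists 53 were called, of which 30 were in neither 0 h list, and 4 were in both 0 h lists and neither 2 h list. Over all constant promoters the mean CHD4 share was higher at 2 h too, at 32.4% against 17.5% at 0 h. Over the Ikaros-bound promoters it was 49.6% against 28.5%, so more calls at 2 h were not particular to the Ikaros-free promoters.

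The Ikaros-free promoters called most often for CHD4 were Pcbd2, Gm47283 and Gm21887 in 8 lists and Rnu3b3 and Dus3l in 7. Pcbd2 encodes a dehydratase of pterin metabolism and Dus3l a tRNA-modifying enzyme. Gm47283 on chromosome Y and Gm21887 on chromosome X had similar H3K27ac fold values, 6.78 to 15.2 and 7.22 to 14.6 over the 8 libraries, and lay 5511 and 5446 bp from the nearest Ikaros peak. Near-identical copies on the sex chromosomes can share reads, so both are uncertain. The region of Rnu3b3, a repeated small RNA gene, is uncertain for the same reason.

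By function, Ikaros-free promoters were frequent among several lists of housekeeping machinery and rare among lists of the B lineage. Of the 9288 protein-coding genes with a constant promoter, 1539 had only Ikaros-free ones (16.6%). The share was 31 of 79 (39.2%) for the respiratory chain and ATP synthase, 30 of 82 (36.6%) for cytosolic ribosomal proteins, 12 of 40 (30.0%) for RNA polymerase II and general factors, 23 of 77 (29.9%) for mitochondrial ribosomal proteins, 13 of 45 (28.9%) for proteasome subunits and 10 of 37 (27.03%) for aminoacyl-tRNA synthetases. It was 12 of 49 for translation initiation factors, 11 of 51 for the spliceosome core, 6 of 28 for Mediator subunits, 11 of 56 for DNA repair and Fanconi genes, 4 of 25 for ubiquitin-conjugating enzymes and 35 of 242 for numbered zinc finger proteins, between 14.5% and 24.5%. These are counts over lists, with no test, and neighbouring genes that share a region, such as Orc3 and Rars2, are not independent. The lists were not matched for region width, so function and width were not separated. Over all constant promoters the Ikaros-free share was 38.2% in the narrowest and 3.54% in the widest bin.

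At the other end, 0 of 63 replication-dependent histone genes and 0 of 21 genes of pre-B and B cell receptor signalling were Ikaros-free, with 54 and 20 of them Ikaros-bound. Of all protein-coding genes with a constant promoter, 52.9% were Ikaros-bound. Genes that share a region are not independent here either, and the region named by Hist1h2ab alone was 29381 bp wide. The Ikaros-free count was 1 of 19 (5.26%) for B-lineage transcription factors, 1 of 16 (6.25%) for glycolysis and glucose uptake, 1 of 14 (7.14%) for fast-repressed genes that the study names, 1 of 13 (7.69%) for the IL-7 receptor and STAT5 pathway and 3 of 33 (9.09%) for mitosis. DNA replication, with 5 of 43 (11.6%), and NuRD subunits, with 2 of 14 (14.3%), lay nearer to the 16.6% over all genes, as did the numbered zinc finger proteins and the ubiquitin-conjugating enzymes, and in lists of this size a few genes make the difference. Of these lists the fast-repressed genes were chosen by the study on related samples, and the list holds only part of those that the study names.

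**Figure D4:**
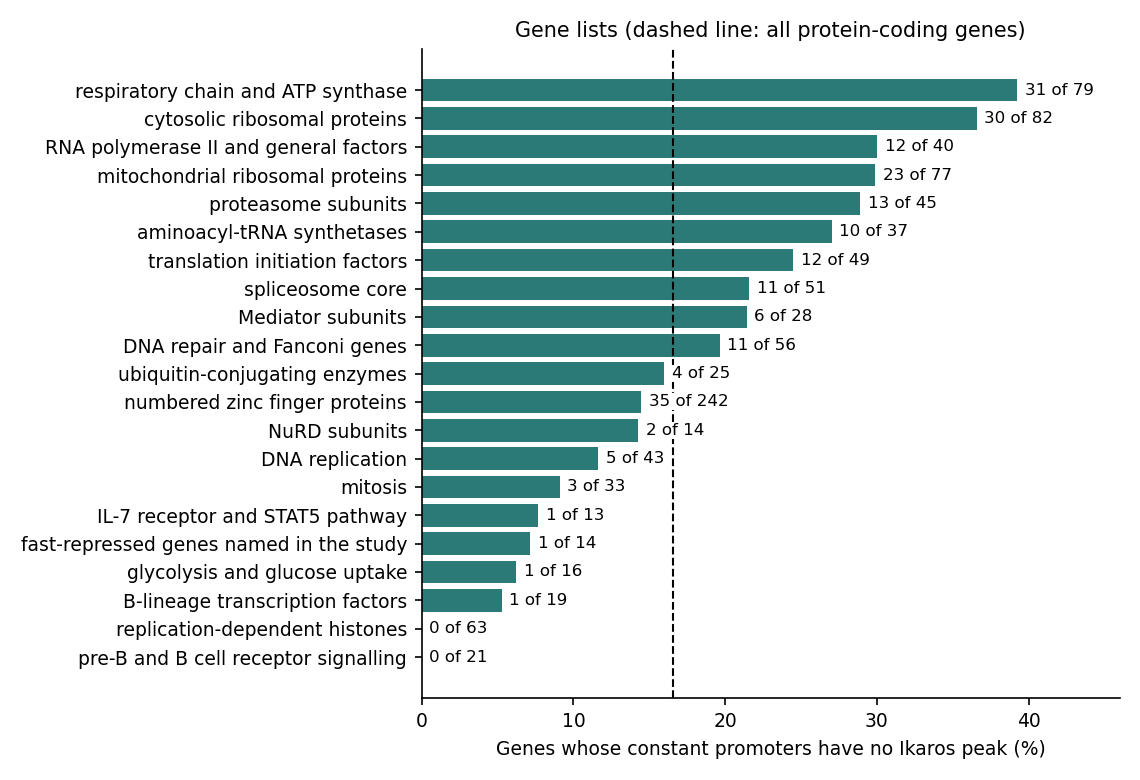
Percentage of the genes of each list with a constant promoter whose constant promoters all had no Ikaros peak (bars, with the counts; lists with at least 10 such genes). The dashed line is the 16.6% over all protein-coding genes; the respiratory chain list stands highest at 39.2%, and the histone and pre-B and B cell receptor lists are at 0.

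The ranks of the most acetylated Ikaros-free genes differed between the lists. Among ribosomal proteins, Rps23, Rpl19 and Rpl18 had mean ranks of 98.2, 98.0 and 96.1 (SD over 8 libraries 1.95, 2.04 and 4.04), and the median over the 30 genes was 92.4, beside 94.4 for the 31 Ikaros-bound ribosomal protein genes. The median over all Ikaros-free protein-coding genes was 67.2. Respiratory genes were led by Cox8a at 92.4, Uqcrh at 88.3 and Ndufb4 at 88.2, subunits of complexes IV, III and I, with a list median of 75.6. Mitochondrial ribosomal protein genes were led by Mrpl49 at 88.4, Mrpl12 and Mrps5 at 87.6, and proteasome genes by Psma2 at 87.5. Mrps5 shared its region with the zinc finger gene Zfp661. Mrpl49 had the same mean rank as Fau of the cytosolic ribosomal list, and Psma2 the same as the mitochondrial Mrpl32. Such a rank belongs to a region and not to a single gene or list. Taf7, a subunit of the general factor TFIID, had a mean rank of 88.7 and Med16 of Mediator 96.7. In the cell cycle lists, Pold3 of DNA polymerase delta reached 96.7, the clamp loader gene Rfc4 92.3, the licensing factor gene Cdc6 79.4 and the centromere protein gene Cenpf 69.2. None of these named genes passed the test of 2 h against 0 h (limma, lowest adjusted p = 0.467, at Psma2).

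A few genes of B-cell biology were nevertheless Ikaros-free at their promoters. Tcf3 encodes E2A, a founding transcription factor of the B lineage, and had a fold enrichment of 28.6 and 8.50 at 0 h, 33.3 and 18.7 at 30 min, 30.3 and 9.06 at 1 h, and 24.4 and 12.98 at 2 h (log2 change 0.63, SE 0.46, adjusted p = 0.559). Replicate 1 was higher than replicate 2 at every time. CHD4 was called there in 4 lists, and the nearest Ikaros peak lay 7833 bp away. Dntt encodes the template-free polymerase of V(D)J joining and is a fast-repressed gene of the study. Its promoter region had 16.4 and 10.0 at 0 h, 11.1 and 6.54 at 30 min, 10.7 and 5.18 at 1 h, and 10.5 and 6.15 at 2 h (log2 change −0.21, SE 0.33, adjusted p = 0.809), CHD4 in 2 lists, and the nearest Ikaros peak at 2391 bp. In each replicate the 0 h value was the highest, and replicate 1 was above replicate 2 at every time.

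Rag2, which encodes a subunit of the V(D)J recombinase, had 5.39 and 4.69 at 0 h, 8.43 and 5.51 at 30 min, 7.06 and 4.64 at 1 h, and 4.64 and 6.15 at 2 h, with no CHD4 call (log2 change 0.41, SE 0.28, adjusted p = 0.533). These ranges overlapped. Il2rg, the common gamma chain of the IL-7 receptor, lies on chromosome X in a region of 628 bp and had 4.24 to 6.94 over the 8 libraries, with no CHD4 call. Ikzf5, the 1 gene of 5 of the Ikaros family with a constant promoter in the lists used here, had 7.08 to 11.996 over the libraries, and the NuRD subunit genes Rbbp7 and Mta1 had 11.6 to 22.1 and 5.34 to 9.68, also without CHD4. Hbb-bs, an adult beta globin gene used as an erythroid marker, had a constant region at 4.29 to 6.15.

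Immunoglobulin V segments made up 30 of the 1704 Ikaros-free promoters. Constant promoters named by a segment of the heavy chain locus numbered 59, of which 20 were Ikaros-free and 8 Ikaros-bound, and 14 were named by a kappa segment, of which 9 and 3 were. Their mean ranks ranged from 8.41 to 77.5 with a median of 41.7 for the heavy chain and from 36.0 to 89.96 with a median of 50.5 for kappa, both below the median of 64.0 over all Ikaros-free promoters. A CHD4 peak in any list was present at 11 of 20 and 6 of 9 of them, against 20.9% of the Ikaros-free promoters as a whole. Reads can be shared between the copies of a V segment family, so the values of all these segments are uncertain.

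Chromosome X differed from every autosome in its share of Ikaros-free promoters, a pattern noticed in these data and given as a description. Of its 259 constant promoters, 127 (49.0%) were Ikaros-free and 28 (10.8%) Ikaros-bound, whereas the Ikaros-free share was 17.1% over the autosomes and 14.0% to 20.4% on single autosomes. Chromosome X thus held 2.74% of the constant promoters, 7.45% of the Ikaros-free and 0.581% of the Ikaros-bound ones. The difference was present at each width, with 61.9% against 36.9% in the narrowest bin and 18.5% (5 of 27) against 3.32% in the widest. It was also present away from promoters, where 52.6% of 114 constant regions on X had no Ikaros peak, against 21.1% of 5130 on the autosomes. In single Ikaros libraries, 3.86% to 38.2% of X-linked and 24.6% to 64.2% of autosomal constant promoters were called, lower on X in 8 of 8.

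The same held for CHD4, which the rule did not use. In single CHD4 libraries, 0.386% to 4.25% of the X-linked constant promoters had a peak, against 10.3% to 42.7% of the autosomal ones, lower in 8 of 8 libraries. A CHD4 peak in any list was found at 4 of 127 X-linked Ikaros-free promoters (3.15%), against 22.3% of the autosomal ones. The H3K27ac ranks of promoters were lower on X too, whereas the median fold over all H3K27ac peaks was higher on X than on the autosomes in 7 of 8 lists, for example 7.58 against 5.89 in 30 min replicate 1, and lower in 0 h replicate 2 (7.23 against 7.71). Over all constant promoters the mean rank was 56.8 to 71.9 on X and 67.8 to 77.9 on the autosomes, lower on X in 8 of 8 libraries. The mean rank of the X-linked Ikaros-free promoters was 52.4 to 68.4 over the 8 libraries, against 56.0 to 71.1 for the autosomal ones, lower on X in 8 of 8. Of all peaks, X held 1.88% to 2.41% in the H3K27ac lists, 0.540% to 1.19% in the Ikaros lists and 0.467% to 0.942% in the CHD4 lists. A lower number of copies of chromosome X per cell and less signal per copy cannot be told apart in these lists.

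The most acetylated X-linked Ikaros-free promoters, chosen after their values were seen, were those of Phf8, a histone demethylase gene, at a mean rank of 94.2, Ftx, a noncoding RNA gene next to the X inactivation centre, at 91.9, Rbmx, an RNA-binding protein gene, at 87.9, and Atrx, a chromatin remodeller gene, at 85.1. Of the Ikaros-free genes of the lists, 2 of 30 for cytosolic ribosomal proteins, 2 of 31 for the respiratory chain, 2 of 12 for translation initiation factors and 1 of 4 for ubiquitin-conjugating enzymes were X-linked. Without chromosomes X and Y, 1574 Ikaros-free promoters remained, the rank gap to the Ikaros-bound promoters was 14.1 points and the CHD4 gap 33.0 percentage points (exact permutation p = 0.0078 for each).

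**Figure D5:**
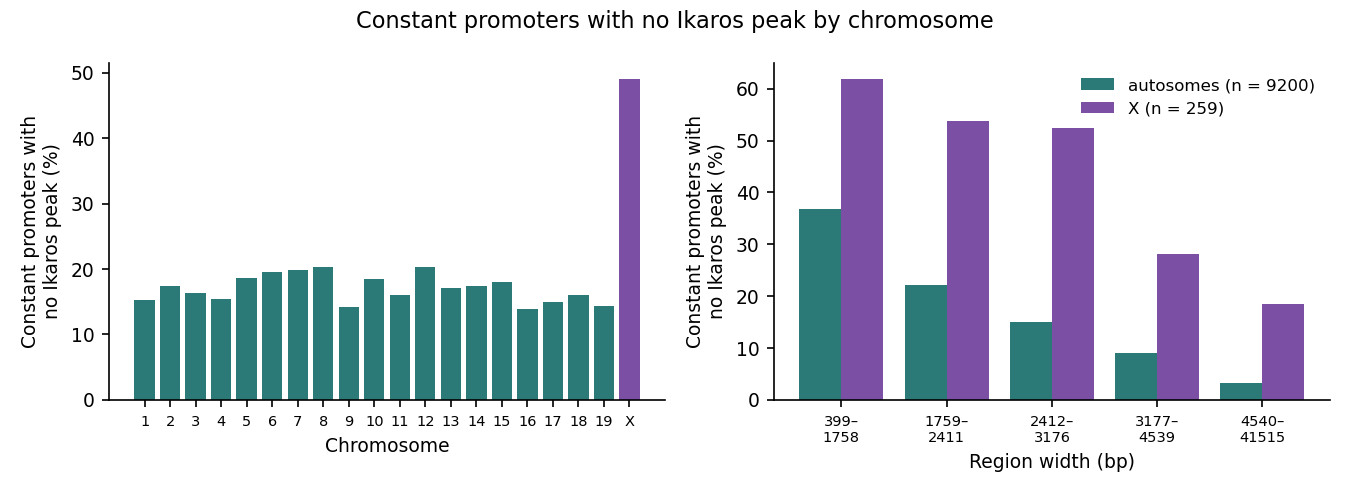
Percentage of constant promoters with no Ikaros peak on each chromosome with at least 10 constant promoters (left), and on X (n = 259) and the autosomes (n = 9200) in 5 bins of region width in bp (right). Chromosome X stands at 49.0%, above the 14.0% to 20.4% of the autosomes, and is higher in all 5 width bins.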

How the data were processed

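B3 cells were profiled by ChIP-seq for HA-Ikaros, H3K27ac and CHD4 at 4 times in 2 replicates; 8 inputs were not analysed here. Paired-end reads were mapped by the authors to mm10 (Bowtie2 2.4.2), duplicates were marked (Picard 2.23.7) and peaks were called per library (MACS2 2.2.7.1), narrow for Ikaros and H3K27ac and broad for CHD4 (versions from the submitters' processing notes). Their methods state this for 0 h, 1 h and 2 h, and not for 30 min. File names say that an input was used. The methods name a blacklist for the signal tracks; its use on these peak lists is not given in the sources used here. The deposited lists give a fold enrichment (a ratio over local background), −log10 p and −log10 q per peak, and a display score that was not used. Summit offsets, also deposited, were not used. The lists hold no read counts.

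Depth was recovered from the fold and p of 1500 narrow peaks per list (relative tolerance 0.001; 99.87% or more were whole fragments), which was tested on simulated data. Regions were merged where peaks overlapped or touched, and any overlap needed 1 bp. A wide region takes its highest peak. Coordinates are 1-based on GRCm38 (mm10), the sequence is RefSeq's GRCm38.p6, and all peaks lay within its 21 chromosomes. A promoter was named by the nearest protein-coding TSS to its middle, or by any gene where there was none. Groups came from library titles. Libraries, not regions, were the unit of the exact sign-flip tests (256 sign patterns) and of the trends (40320 pairings), with Benjamini-Hochberg adjustment over 2 and 3 tests, in Python 3.11.15 with scipy 1.17.1. Single regions were fitted with limma 3.58.1 in R 4.3.3, with time as 4 groups, and adjusted over 14715 regions. The study used read counts with a count model, and the lists do not hold those. With 2 libraries against 2, an exact p cannot go below 0.333.

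Named promoters were the 10 highest and 5 lowest by mean rank, the calls at 2 h, the 5 called in most CHD4 lists, up to 3 genes per list, the 3 nearest an Ikaros peak, the 3 most acetylated with a single Ikaros list, and the most acetylated Ikaros-bound promoters. The members, the 26 gene lists and these rules were chosen with earlier results of these data known. Alternatives covered peak thresholds, list length, overlap, TSS distance, annotation, ranking, width, left-out replicates, normalisation and a replicate block.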

Additional observations from a re-analysis of the deposited data

How the results depend on the processing

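The number of Ikaros-free promoters was 3890 with lists of equal size and 2576 when an Ikaros peak was looked for within 500 bp of the TSS only. It was 1560 to 2085 under the other settings and 1710 to 2011 without any 1 H3K27ac or Ikaros library, lowest without Ikaros 30 min replicate 2 and highest without Ikaros 2 h replicate 2. The rank difference kept its sign and its side of the threshold under all 20 alternatives run (3.68 to 21.8 points, and 13.6 to 14.7 without any 1 library), as did the CHD4 difference under 20 (5.41 to 34.1 points, and 30.7 to 35.3). The trend of the rank difference passed an unadjusted p of 0.05 with ranks over constant promoters and within 5 width bins (rho = −0.781 in each) and without 30 min replicate 1 (−0.844, exact permutation p = 0.0254). It was weakest, −0.293, with lists of equal size, and −0.844 to −0.385 without any 1 library. The trend of the rank of Ikaros-free promoters turned to rho = −0.0488 with lists of equal size (exact permutation p = 0.946), and was 0.257 to 0.734 without any 1 library. The trend of their CHD4 share passed with lists of equal size (rho = 0.781) and without 0 h replicate 2 (0.973), fell short at a −log10 q of at least 3 (0.172), and ranged from 0.532 to 0.973 without any 1 library. The cause was not tested. The 4 limma calls at 2 h became 0 when only constant promoters were fitted and 0 without any 1 library, 3 with median centring and 4 on percentile ranks.

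Over single regions, the deviations of same-numbered libraries from their time means correlated at −0.0015 to 0.0530, so the numbers were not taken as pairs. At the level of libraries, replicate 1 had the higher mean rank of Ikaros-free promoters, the smaller rank difference and the longer H3K27ac list at all 4 times. With a replicate block the calls were 0, 0 and 3, and the trends were rho = 0.732 for CHD4 (exact permutation p = 0.0764, with r = 0.801 and unadjusted p = 0.0330), −0.488 for the rank difference (p = 0.281, exact) and 0.586 for the rank of Ikaros-free promoters (p = 0.194, exact). The block changed no other call. Leaving out chromosomes X and Y, and changing only the CHD4 lists, were chosen after seeing the data. At 1.98 to 3.59 fragments per base, binding below the peak threshold of the Ikaros libraries was not detectable.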
